A study of Drosophila melanogaster with 8 samples.

Results

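The 10 genes described here are the Wnt ligands wg, Wnt2, Wnt4, Wnt5, Wnt6 and Wnt10, the receptor fz2, its co-receptor arr, the feedback inhibitor nkd and the nuclear factor pan. They were taken by symbol from a deposited expression table of Drosophila melanogaster, which lists them as 10 of 15182 fly genes, and as 25 of 25406 isoforms in a second table. RNA was sequenced from 4 GFP-positive samples and from 4 samples of all cells, 1 of each from 4 independent sorts. The GFP-positive cells came from E10::EGFP embryos, in which an enhancer of ovo named E10 drives EGFP. The all-cell samples were 50000 cells each from the parent scatter gate of the same sorts, so that they hold EGFP-positive cells as well. Both groups were dissociated from pooled early stage 14 embryos, collected over 1 h and aged for about 11 h at 25 °C, and the gates were set on wild type cells. The series' design text calls the second group GFP-negative; the sample labels are followed here.

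Wnt proteins are lipid-modified ligands that cells secrete to instruct their neighbours. A Wnt that binds a Frizzled receptor together with the co-receptor Arrow keeps beta-catenin, which is Armadillo in flies, from being degraded, and Armadillo then joins the DNA-binding protein Pangolin to switch on target genes. Several targets, nkd among them, restrain the signal in turn. In the ventral epidermis of the fly embryo, wg signalling lowers transcription of ovo and the cells make smooth cuticle in place of trichomes.

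The samples matched their labels at ovo, the gene that E10 controls, which stood at 262 ± 43.6 FPKM in GFP-positive cells and at 41.6 ± 11.9 FPKM in all cells (SD, n = 4 each, exact two-sided permutation test p = 0.0286, the smallest that 4 against 4 libraries allow). FPKM, a fragment count scaled by transcript length and by the mapped fragments of the library, is a level per length, so that levels of different genes can be set side by side. From the smallest steps between low values, 5780000 to 8790000 fragments per GFP-positive library and 9700000 to 11570000 per all-cell library were estimated. A floor of 3 fragments on a 1 kb transcript then lay at 0.341 to 0.519 FPKM in GFP-positive libraries and at 0.259 to 0.309 FPKM in all-cell libraries, for counting error only. Summed over 7 epidermal markers, with ovo again among them, GFP-positive libraries held 1720 to 2216 FPKM and all-cell libraries 144 to 294 FPKM. The tracheal list (trh, vvl, btl, Gasp and serp, 5 of 5 above all-cell libraries) summed to 2146 to 3352 FPKM in GFP-positive libraries, against 366 to 737 FPKM. The 5 visceral mesoderm and heart markers (bin, bap, Hand, tin and Fas3, 1 above, 1 below) summed to 488 to 565 against 251 to 366 FPKM. Sums were lower in the sorted cells for 6 neuronal markers (78.6 to 228 FPKM there, against 462 to 905 FPKM in all cells), 5 of neuroblasts (22.1 to 68.7 against 175 to 375), 5 of glia (207 to 240 against 318 to 410), 6 of somatic muscle (309 to 532 against 1780 to 2767), 6 of the gut (40.8 to 78.4 against 133 to 193) and 4 of the fat body (31.4 to 84.1 against 428 to 904), with every marker of these lists below in all GFP-positive libraries. The list for Malpighian tubules (ct, Kr, byn and cad) summed to 63.1 to 114.5 against 114.8 to 137 FPKM, with 2 such members. Markers of hemocytes (96.0 to 179.9 against 205 to 221) and germ cells (0.701 to 3.99 against 9.23 to 20.4) had 2 such members each. gcm is in both the glial and the hemocyte list and counts as below in both. Of all these markers 0 were at 0 in every GFP-positive library. A sum weighs its most abundant markers most, and how far each marker is confined to its cell type was not tested. The part of any mixture of cell types in the results below was not tested either. In such bulk samples fewer cells of a type and less RNA per cell cannot be told apart.

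Between the groups, wg rose, Wnt4, fz2 and arr fell, and the other 6 genes did not pass the test. Fold changes were tested with limma on log2(FPKM + 1) over all 10943 genes that reached 1 FPKM in at least 4 libraries, with Benjamini-Hochberg adjusted p-values and a threshold of 0.05. All 10 members passed this filter, Wnt10 with exactly 4 libraries. The count of 1 member higher stands beside 11.6% of all genes called higher, and that of 3 members lower beside 38.7% called lower; for either direction it was 4 of 10 members beside 50.2% of genes, so that the shares are near the background. In 4 of the 10 genes the libraries of the groups did not overlap, which was so in 45.0% of all genes tested. The median log2 fold change was -0.05 over the members and -0.47 over all genes tested. Both the median of all genes and the calls depended on how libraries are scaled. That median was -0.02 with a TMM-like scaling, which centres a trimmed mean of the log2 ratios between libraries, and -1.26 when libraries were scaled by the sum of the ERCC spike-in RNAs. That sum was 22746 to 37807 FPKM in GFP-positive libraries and 7530 to 24702 FPKM in all-cell libraries, lowest in the all-cell library of sort 4. With the TMM-like scaling 4 members were called higher and 1 lower, beside 21.0% and 18.8% of all genes, and with the ERCC sum 0 were called higher and 3 lower, beside 2.82% and 52.2%.

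**Figure D1:**
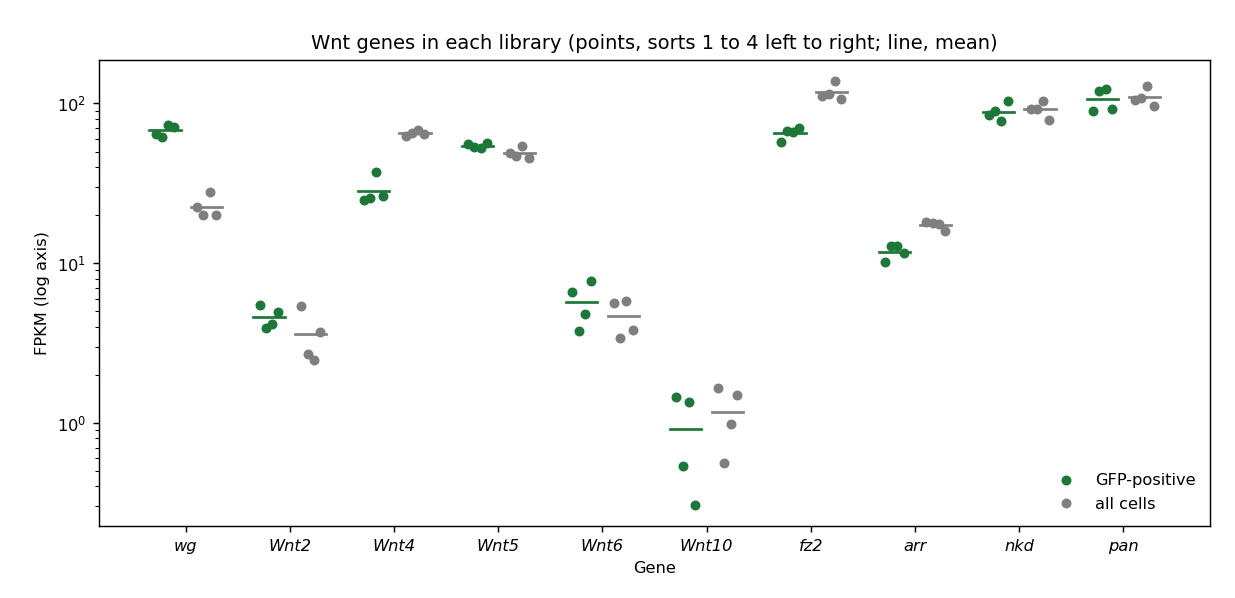
FPKM of the 10 Wnt genes on a log axis in GFP-positive libraries (green, left of each pair) and all-cell libraries (grey), with 1 point per sort and a line at the mean. The 4 GFP-positive libraries lie above all 4 all-cell libraries for wg and below them for Wnt4, fz2 and arr.

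wingless (wg, CG4889, chromosome 2L, 7307161 to 7316255 on build dm3) encodes the founding Wnt of the fly, a segment polarity signal of the epidermis. It stood at 64.2, 62.1, 73.2 and 71.4 FPKM in the GFP-positive libraries of sorts 1 to 4, against 22.4, 20.0, 27.9 and 20.0 FPKM in the all-cell libraries. Every GFP-positive library lay above every all-cell library, and both groups were highest in sort 3. The means of 67.7 ± 5.40 and 22.6 ± 3.74 FPKM (SD, n = 4 each) differed 3.00-fold, and wg rose by 1.55 on the log2 scale (SE 0.15, limma adjusted p = 2.8e-05), or 2.02 above the median of all genes. The direction held under every scaling tried, but scaled by the ERCC sum the log2 fold change was 0.63 and missed the threshold (limma adjusted p = 0.285). Across the other alternatives the adjusted p was 3.4e-04 or lower.

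Wnt4 (CG4698, chromosome 2L, 7255460 to 7277168), a ligand with roles in cell movement and in muscle and nerve targeting, moved the other way. It stood at 24.8, 25.7, 36.9 and 26.3 FPKM in the GFP-positive libraries, against 62.7, 64.9, 68.5 and 64.6 FPKM in the all-cell libraries. The groups did not overlap, and GFP-positive library 3 was set apart from the other 3 of its group. The means were 28.5 ± 5.69 and 65.2 ± 2.43 FPKM (SD, n = 4 each), and Wnt4 fell by 1.19 log2 units (SE 0.15, limma adjusted p = 1.2e-04). It was the member that stayed called lower under each alternative tried, with a log2 fold change between -2.10 and -0.64. Its locus holds CG31909 on the opposite strand, which averaged 2.61 FPKM in GFP-positive cells and 7.85 FPKM in all cells. The use of strand in counting is not given in the sources used here, so that their fragments may not be fully separated.

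wg and Wnt4 are neighbours in the genome. With Wnt6 and Wnt10 they form a group of 122.1 kb on 2L, in the order Wnt4, wg, Wnt6, Wnt10, with 0 other gene rows in the 3 gaps of 29992, 18545 and 12277 bases. These neighbours did not change alike. The log2 ratio of wg to Wnt4 within a library, which no scaling of the library alters, was 1.27 ± 0.20 in GFP-positive cells and -1.54 ± 0.19 in all cells (SD, n = 4 each). The ratio thus differed by 2.81 log2 units and changed sign (exact permutation p = 0.0286, adjusted p = 0.0327 over 8 ratios, higher in 4 of 4 sorts). The log2 ratio of wg to Wnt6 was 3.62 ± 0.43 in GFP-positive cells and 2.30 ± 0.24 in all cells (SD, n = 4 each), with the same exact permutation p and adjusted p. The 8 ratios were chosen with the levels of the genes known. In GFP-positive libraries wg lay wholly above the all-cell libraries and Wnt4 wholly below them. The smallest possible p for the ratio of wg to Wnt4 thus followed from the levels and adds no evidence.

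The other 4 ligands did not pass the test as deposited. Wnt5 (CG6407, chromosome X, 18395589 to 18399436), known as a guidance cue for axons, stood at 55.7, 53.0, 52.4 and 56.5 FPKM in GFP-positive libraries and at 48.9, 47.0, 53.9 and 45.7 FPKM in all-cell libraries. The groups overlapped in sort 3, where the all-cell library was the higher. Its log2 fold change was 0.15 (95% interval -0.11 to 0.42, limma adjusted p = 0.308). With a TMM-like scaling Wnt5 was called higher by 0.70 log2 units (limma adjusted p = 0.0079), and scaled by the ERCC sum its value was -0.78.

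Wnt2, Wnt6 and Wnt10 were scarce. Wnt2 (CG1916, chromosome 2R, 5381674 to 5390695), which acts in the fly testis and trachea, stood at 5.49, 3.90, 4.15 and 4.92 FPKM in GFP-positive libraries and at 5.41, 2.71, 2.47 and 3.72 FPKM in all-cell libraries. In each of the 4 sorts the GFP-positive library was the higher, but the groups overlapped and the log2 fold change of 0.33 missed the threshold (95% interval -0.27 to 0.92, limma adjusted p = 0.335). Wnt6 (CG4969, chromosome 2L, 7334801 to 7352542), often transcribed with wg in other fly tissues, stood at 6.55, 3.75, 4.83 and 7.74 FPKM against 5.66, 3.41, 5.80 and 3.79 FPKM. Its log2 fold change was 0.23 (95% interval -0.38 to 0.85, limma adjusted p = 0.51), with 3 of 4 sorts higher. With a TMM-like scaling both were called higher, Wnt2 by 0.78 (limma adjusted p = 0.0152) and Wnt6 by 0.69 (limma adjusted p = 0.0475), and scaled by the ERCC sum both lay below 0. Wnt10 (CG4971, chromosome 2L, 7364820 to 7377528) was close to the limit of detection, at 1.46, 0.538, 1.35 and 0.305 FPKM in GFP-positive libraries and 1.65, 0.562, 0.988 and 1.503 FPKM in all-cell libraries. The Ensembl annotation lists Wnt10-RC, of 2375 nt, and not the deposited Wnt10-RB. On a transcript of that length the value in GFP-positive library 4 corresponds to about 4 fragments. No difference in Wnt10 was detectable at this depth (log2 fold change -0.21, 95% interval -0.90 to 0.48, limma adjusted p = 0.608).

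The make-up of Wnt ligand RNA differed between the groups. The 6 ligands summed to 162 ± 10.5 FPKM in GFP-positive cells and to 146 ± 9.75 FPKM in all cells (SD, n = 4 each), with overlapping ranges. wg made up 41.8% ± 0.93 of this sum in GFP-positive cells and 15.4% ± 1.46 in all cells, and Wnt4 17.5% ± 2.67 and 44.7% ± 2.19 for the same groups (SD, n = 4 each). The share of Wnt5 was 33.7% ± 2.40 in GFP-positive cells and 33.5% ± 0.52 in all cells. Shares sum to 100% within a library, so a rise of 1 lowers the others. The ligand shares themselves were not tested.

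**Figure D2:**
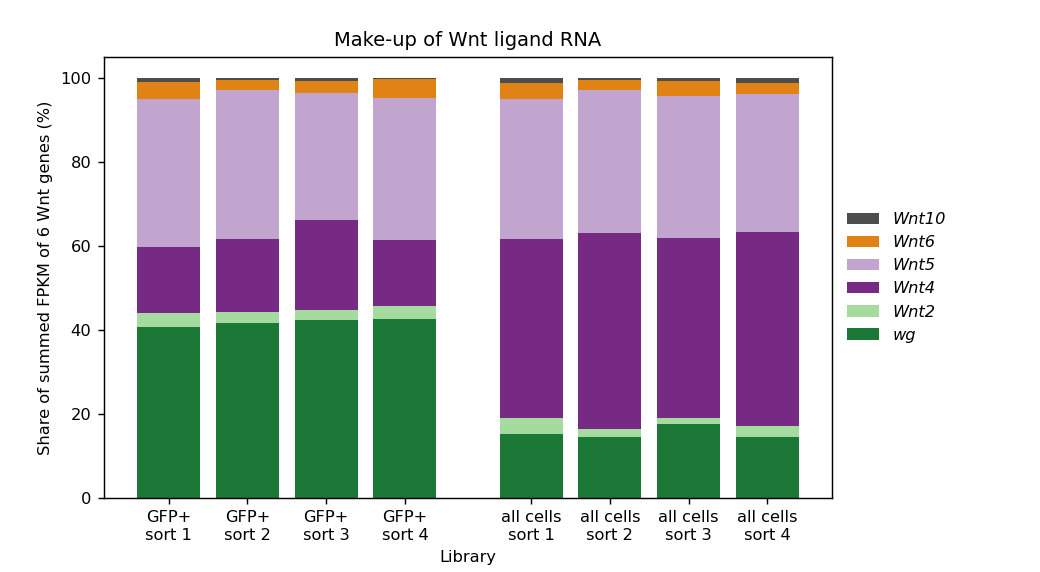
Share of each Wnt gene in the summed FPKM of the 6 ligands, in percent, in the 4 GFP-positive libraries (left) and the 4 all-cell libraries (right). wg (dark green) averages 41.8% on the left and 15.4% on the right, while Wnt4 (purple) averages 17.5% and 44.7%.

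The receptor and co-receptor of the canonical signal were both lower in the sorted cells. frizzled 2 (fz2, CG9739, chromosome 3L, 19135998 to 19228191), a receptor that binds Wg, stood at 57.2, 67.7, 66.2 and 70.4 FPKM in GFP-positive libraries, against 112, 114, 138 and 107 FPKM in all-cell libraries. The groups did not overlap, and the lowest all-cell library was above the highest GFP-positive one. With means of 65.4 ± 5.70 and 118 ± 13.9 FPKM (SD, n = 4 each), fz2 fell by 0.84 log2 units (SE 0.13, limma adjusted p = 3.9e-04). Relative to the median of all genes this was -0.37, and with a TMM-like scaling the call was lost at -0.29 (limma adjusted p = 0.285).

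arrow (arr, CG5912, chromosome 2R, 9341159 to 9370723), an LRP-type co-receptor, stood at 10.1, 12.8, 12.8 and 11.5 FPKM in GFP-positive libraries and at 18.04, 17.7, 17.5 and 15.9 FPKM in all-cell libraries. The groups did not overlap, and their means were 11.8 ± 1.26 and 17.3 ± 0.96 FPKM (SD, n = 4 each). arr fell by 0.52 log2 units (SE 0.16, limma adjusted p = 0.0217), which is 0.05 from the median of all genes. With a TMM-like scaling it stood at 0.0020 (limma adjusted p = 0.995), and with 3 of the 8 libraries left out in turn, GFP-positive library 1 and all-cell libraries 1 and 2, its adjusted p was 0.0562 to 0.0601. CG43192, a gene on the opposite strand within the arr locus, averaged 7.43 FPKM in GFP-positive cells and 11.04 FPKM in all cells, so fragments may be shared here too.

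Within libraries the ratio of ligand to receptor differed. wg and fz2 stood at a log2 ratio of 0.05 ± 0.13 in GFP-positive cells and of -2.39 ± 0.10 in all cells (SD, n = 4 each, exact permutation p = 0.0286, adjusted p = 0.0327). fz2 relative to arr was 2.47 ± 0.11 in GFP-positive cells and 2.76 ± 0.15 in all cells, with the same exact permutation p. For this ratio the groups were barely apart, with 2.614 in GFP-positive library 4 and 2.628 in all-cell library 1. In GFP-positive libraries wg lay wholly above the all-cell libraries and fz2 wholly below them. The p for the ratio of wg to fz2 thus followed from the levels and adds no evidence. These ratios too were chosen with the levels known.

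The response genes nkd and pan did not pass the test. naked cuticle (nkd, CG11614, chromosome 3L, 18996832 to 19038431), a target of the signal whose product binds Dishevelled and restrains it, stood at 84.4, 90.3, 77.8 and 103 FPKM in GFP-positive libraries and at 91.8, 92.7, 104 and 78.4 FPKM in all-cell libraries. The groups spanned nearly the same range, and sort 4 was the one in which the GFP-positive library was the higher. Its log2 fold change was -0.04 (95% interval -0.35 to 0.26, limma adjusted p = 0.806), and 0.51 with a TMM-like scaling (limma adjusted p = 0.056). pangolin (pan, CG34403, chromosome 4, 89956 to 134454), the TCF factor that carries the signal to DNA, stood at 89.8, 119, 123 and 92.8 FPKM against 104, 108, 129 and 96.3 FPKM. Its log2 fold change was -0.05 (95% interval -0.38 to 0.28, limma adjusted p = 0.803). The log2 ratio of nkd to pan was -0.25 in both groups, with an SD of 0.35 in GFP-positive cells and 0.06 in all cells (exact permutation p = 0.971, adjusted p = 0.971). The median of all genes tested was -0.47 as deposited, so nkd and pan lay 0.42 above that median.

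**Figure D3:**
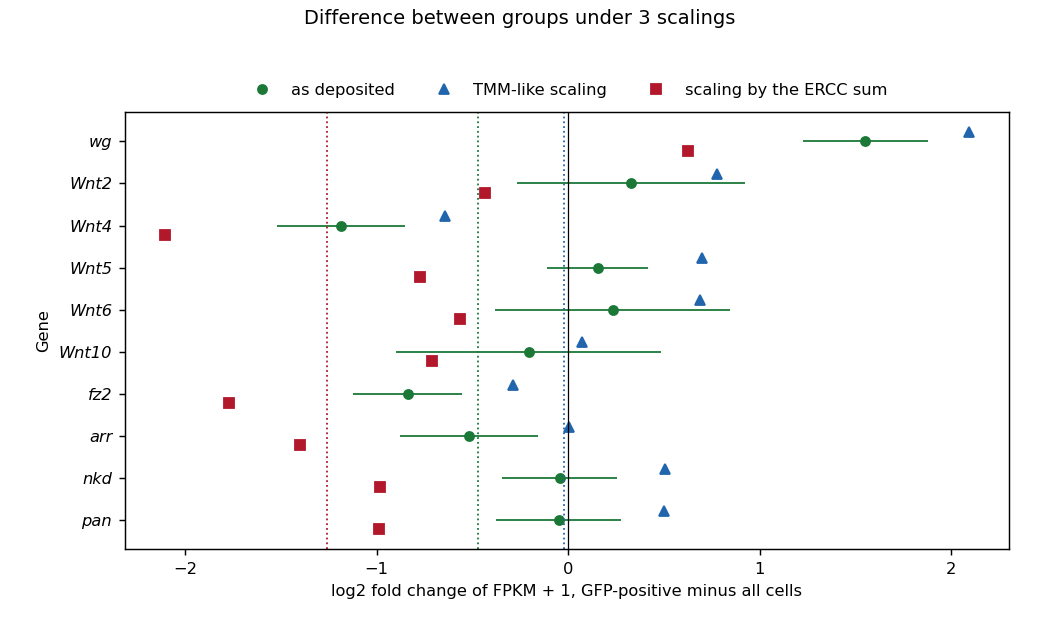
log2 fold change of FPKM + 1, GFP-positive minus all cells, for the 10 genes as deposited (green circles with 95% intervals), with TMM-like scaling (blue triangles) and scaled by the ERCC sum (red squares); dotted lines give the median of all genes at -0.47, -0.02 and -1.26. wg is the gene farthest to the right and Wnt4 the one farthest to the left under all 3.

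In GFP-positive cells the order of levels was pan, nkd, wg, fz2, Wnt5, Wnt4, arr, Wnt6, Wnt2 and Wnt10. The ranges of pan and nkd overlapped there, as did those of wg and fz2 and those of Wnt6 and Wnt2. In all cells the order was fz2, pan, nkd, Wnt4, Wnt5, wg, arr, Wnt6, Wnt2 and Wnt10. fz2 overlapped with pan there, pan with nkd and Wnt6 with Wnt2. wg thus stood at rank 3 in GFP-positive cells and at rank 6 in all cells.

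Of the 25 isoforms of these genes, 19 reached 1 FPKM in at least 4 libraries and were tested with limma over 16198 isoforms, and 2 were called higher and 5 lower. The background was 9.28% of isoforms called higher, 27.2% called lower and 36.4% called in either direction. Isoform values are estimates that divide shared fragments between overlapping transcripts. Of the 7 calls, 2 are those of arr and Wnt4, each listed with 1 isoform. The call of Wnt4-RA held in 8 of the 8 fits that left out 1 library, and that of arr-RA in 0. With a TMM-like scaling arr-RA stood at -0.05 (limma adjusted p = 0.876).

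For fz2, 2 of the 4 isoforms fell. fz2-RC, which starts at a proximal 5′ end, stood at 55.4, 60.3, 55.2 and 57.3 FPKM in GFP-positive libraries and at 90.8, 80.7, 95.7 and 83.7 FPKM in all-cell libraries. fz2-RD, whose 5′ end lies 64.4 kb further upstream, stood at 1.08, 4.70, 10.4 and 7.07 FPKM in GFP-positive libraries, against 16.5, 32.0, 40.9 and 21.4 FPKM in all-cell libraries. Neither isoform had overlapping groups, and fz2-RD was low in GFP-positive library 1 above all. fz2-RD fell by 2.24 log2 units (SE 0.50, limma adjusted p = 0.0073) and fz2-RC fell by 0.61 (SE 0.12, limma adjusted p = 0.0044). With a TMM-like scaling fz2-RD remained lower at -1.80 (limma adjusted p = 0.0395), while fz2-RC stood at -0.12 (limma adjusted p = 0.622). As a share of the summed fz2 isoforms, fz2-RD made up 1.89%, 6.94%, 15.8% and 10.0% in GFP-positive libraries and 14.8%, 28.0%, 29.6% and 20.0% in all-cell libraries. The share was lower in 4 of 4 sorts, but GFP-positive library 3 lay above all-cell library 1, and the difference of -14.4 percentage points missed the threshold (exact permutation p = 0.0571, adjusted p = 0.0914 over 8 shares). In the Ensembl annotation fz2-RA, RB, RC and RD all have a coding sequence of the same length, 2082 nt or 694 residues.

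wg was listed with 2 isoforms, of which the Ensembl annotation used here holds wg-RA and not wg-RB. wg-RA, which encodes the Wg protein of 468 residues, carried most of the signal, at 64.2 ± 3.87 FPKM in GFP-positive cells and 21.98 ± 4.10 FPKM in all cells (SD, n = 4 each, log2 fold change 1.52, SE 0.16, limma adjusted p = 2.4e-04). wg-RB, a shorter model with a 5′ end inside the locus and named after its values were seen, stood at 3.76, 0.683, 5.76 and 3.62 FPKM in GFP-positive libraries and at 0.378, 0.231, 0.216 and 1.59 FPKM in all-cell libraries. The groups overlapped, since GFP-positive library 2 lay below all-cell library 4. It was called higher by 1.39 log2 units (SE 0.47, limma adjusted p = 0.0421), a call kept in 2 of the 8 fits that left out 1 library. With a pseudocount of 0.1 its value was 2.40 and missed the threshold (limma adjusted p = 0.0555), as did 0.82 when scaled by the ERCC sum (limma adjusted p = 0.232).

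pan was listed with 12 isoforms, of which 7 were tested and 1 fell. pan-RB and pan-RC were the most abundant, at 37.8 ± 8.20 and 29.2 ± 4.81 FPKM in GFP-positive cells, against 32.0 ± 4.33 and 30.2 ± 4.13 FPKM in all cells (SD, n = 4 each). Neither passed the test, and pan-RC is absent from the Ensembl annotation. pan-RI, whose coding sequence in the Ensembl annotation encodes 410 residues where pan-RB encodes 751, stood at 4.23, 4.97, 6.86 and 4.25 FPKM in GFP-positive libraries and at 8.20, 9.08, 11.1 and 8.16 FPKM in all-cell libraries. It fell by 0.75 log2 units (SE 0.24, limma adjusted p = 0.0377), but the call was kept in 1 of the 8 fits that left out 1 library. It was lost with a TMM-like scaling at -0.32 (limma adjusted p = 0.436) and with upper quartile scaling at -0.41 (limma adjusted p = 0.263). As a share of all pan isoforms, which no scaling alters, pan-RI was 4.76% ± 0.60 in GFP-positive cells and 8.33% ± 0.33 in all cells (SD, n = 4 each), lower in 4 of 4 sorts with no overlap. The exact permutation p of 0.0286 is the smallest possible, and the adjusted p over 8 shares was 0.0914. pan-RJ, which starts further downstream, gave 5.80% ± 0.32 in GFP-positive cells and 7.28% ± 0.70 in all cells with the same exact permutation p. pan-RR and pan-RQ stood at 13.4 ± 2.40 and 9.11 ± 4.70 FPKM in GFP-positive cells, against 16.0 ± 2.83 and 10.7 ± 2.81 FPKM in all cells, and were not called. pan-RA and pan-RH were listed at 0 in all 8 libraries, and the other isoforms of pan reached at most 8.75 FPKM in any library.

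**Figure D4:**
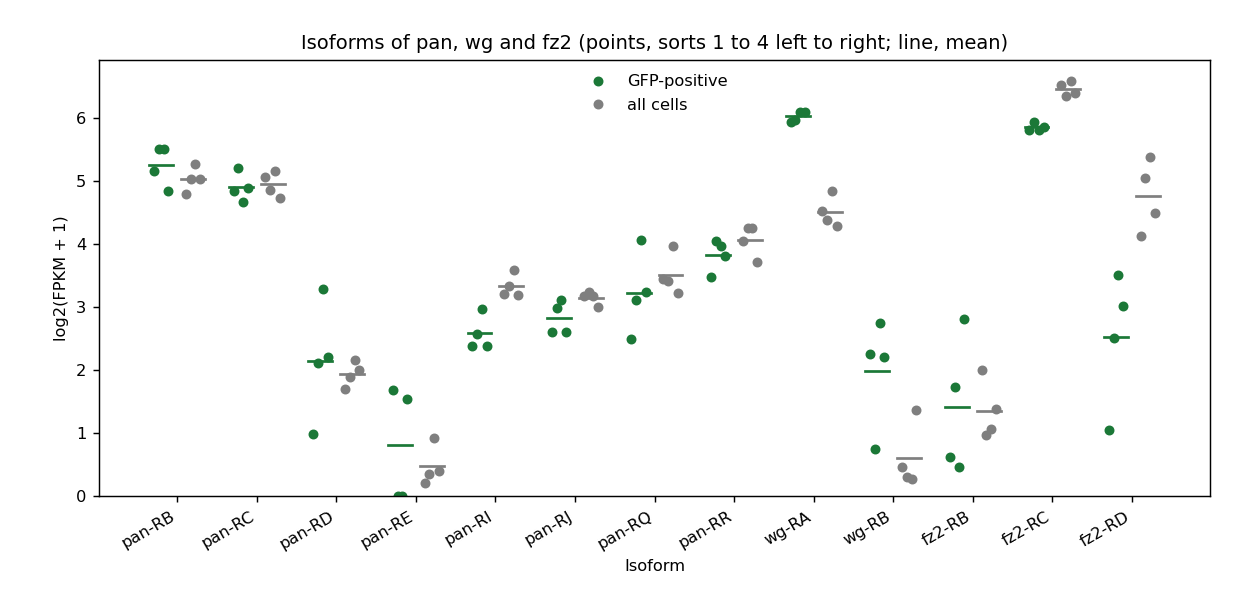
log2(FPKM + 1) of the isoforms of pan, wg and fz2 that average at least 1 FPKM in 1 group, in GFP-positive libraries (green) and all-cell libraries (grey), with 1 point per sort and a line at the mean. fz2-RD lies lower in all GFP-positive libraries, wg-RA higher, and the abundant pan-RB and pan-RC overlap.

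Of 42 other genes of the pathway, 41 were tested, and 3 rose and 19 fell, beside 11.6% and 38.7% of all genes. Their median log2 fold change was -0.42, close to the -0.47 of all genes. With a TMM-like scaling 7 rose and 6 fell, beside 21.0% and 18.8% of all genes, and scaled by the ERCC sum 0 rose and 23 fell, beside 2.82% and 52.2%. Among 11 genes of secretion and the extracellular space, 10 of them tested, 1 rose and 4 fell, beside 11.6% and 38.7% of all genes. With a TMM-like scaling 1 rose and 0 fell, beside 21.0% and 18.8% of all genes. wntless (wls), which ferries Wnts to the cell surface, had a log2 fold change of -1.03 (limma adjusted p = 0.0017). The glypican dlp stood at -0.92 (limma adjusted p = 3.6e-04), and ttv, which builds heparan sulphate chains, at -0.76 (limma adjusted p = 0.0034). Of these 3, 0 stayed called with a TMM-like scaling.

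Among 9 other receptors 1 rose and 7 fell, with a median of -0.85, beside 11.6% and 38.7% of all genes. Of these 9, 2 rose and 4 fell with a TMM-like scaling, with a median of -0.30, beside 21.0% and 18.8% of all genes. Drl-2, a receptor of the Ryk family, stood at 2.07 ± 1.55 FPKM in GFP-positive cells and at 15.8 ± 5.94 FPKM in all cells (SD, n = 4 each, log2 fold change -2.50, limma adjusted p = 3.2e-04). The Ror family kinases Nrk and Ror had log2 fold changes of -2.10 (limma adjusted p = 8.0e-05) and -2.04 (limma adjusted p = 2.6e-04). These 3 stayed called lower with a TMM-like scaling, at -2.05, -1.63 and -1.57. Receptors of both families are known from the nervous system, and the sums of neuronal markers are given above; their part in these falls was not tested.

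Notum and fz3, known as genes that the Wg signal induces in other fly tissues, were called higher. nkd, also a target of the signal, was not called as deposited (log2 fold change -0.04, limma adjusted p = 0.806). Nor was nkd called with a TMM-like scaling (0.51, limma adjusted p = 0.056). A part of the Wg signal in these values was not tested. Notum, which encodes a secreted enzyme that strips the lipid from Wnts, stood at 30.1, 28.3, 18.3 and 27.7 FPKM in GFP-positive libraries and at 21.7, 15.6, 16.5 and 15.4 FPKM in all-cell libraries. The groups overlapped through GFP-positive library 3, and Notum rose by 0.56 log2 units (SE 0.20, limma adjusted p = 0.035). fz3, a Frizzled gene that responds to Wg, stood at 29.6, 20.2, 20.7 and 41.6 FPKM against 20.1, 13.8, 19.8 and 14.6 FPKM. The groups did not overlap, but the lowest GFP-positive library was barely above the highest all-cell library, and fz3 rose by 0.64 log2 units (SE 0.24, limma adjusted p = 0.0464). As deposited both calls were near the threshold and held in 2 and 4 of the 8 fits that left out 1 library. This pair was chosen after its values were seen, and both lay below 0 when scaled by the ERCC sum, at -0.35 for Notum and -0.27 for fz3. Notum stood at 1.09 (limma adjusted p = 0.0014) and fz3 at 1.17 (limma adjusted p = 0.0022) with a TMM-like scaling.

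Among 12 cytoplasmic genes 1 rose and 2 fell, beside 11.6% and 38.7% of all genes. With a TMM-like scaling 4 rose and 1 fell, beside 21.0% and 18.8% of all genes. Tnks, which encodes Tankyrase, an enzyme that marks Axin for degradation, stood at 17.8 ± 0.49 FPKM in GFP-positive cells and at 9.62 ± 0.47 FPKM in all cells (SD, n = 4 each). Tnks rose by 0.83 log2 units (SE 0.16, limma adjusted p = 0.0015), a value that became 1.34 with a TMM-like scaling (limma adjusted p = 1.7e-04) and -0.06 when scaled by the ERCC sum (limma adjusted p = 0.928). Apc, a scaffold of the complex that degrades Armadillo, stood at 14.7 ± 2.05 FPKM in GFP-positive cells and at 39.7 ± 4.45 FPKM in all cells (SD, n = 4 each, log2 fold change -1.38, limma adjusted p = 6.6e-05). dsh, which relays the signal from the receptor, stood at -0.80 (limma adjusted p = 0.0057), and at -0.28 with a TMM-like scaling (limma adjusted p = 0.325). The other 9, arm and Axn among them, did not pass the test.

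Among 10 nuclear genes 0 rose and 6 fell, beside 11.6% and 38.7% of all genes. Of these 10, 0 rose and 1 fell with a TMM-like scaling, beside 21.0% and 18.8% of all genes. Scaled by the ERCC sum 0 rose and 9 fell, beside 2.82% and 52.2% of all genes. groucho (gro), a co-repressor that binds Pangolin, stood at 17.9 ± 5.56 FPKM in GFP-positive cells and at 55.2 ± 7.96 FPKM in all cells (SD, n = 4 each, log2 fold change -1.61, limma adjusted p = 1.5e-04). It stayed called lower with a TMM-like scaling, at -1.08. The co-repressor CtBP had a log2 fold change of -0.94 (limma adjusted p = 1.5e-04) and hyx, a partner of Armadillo, one of -0.80 (limma adjusted p = 0.0025). Both lost their call with a TMM-like scaling.

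**Figure D5:**
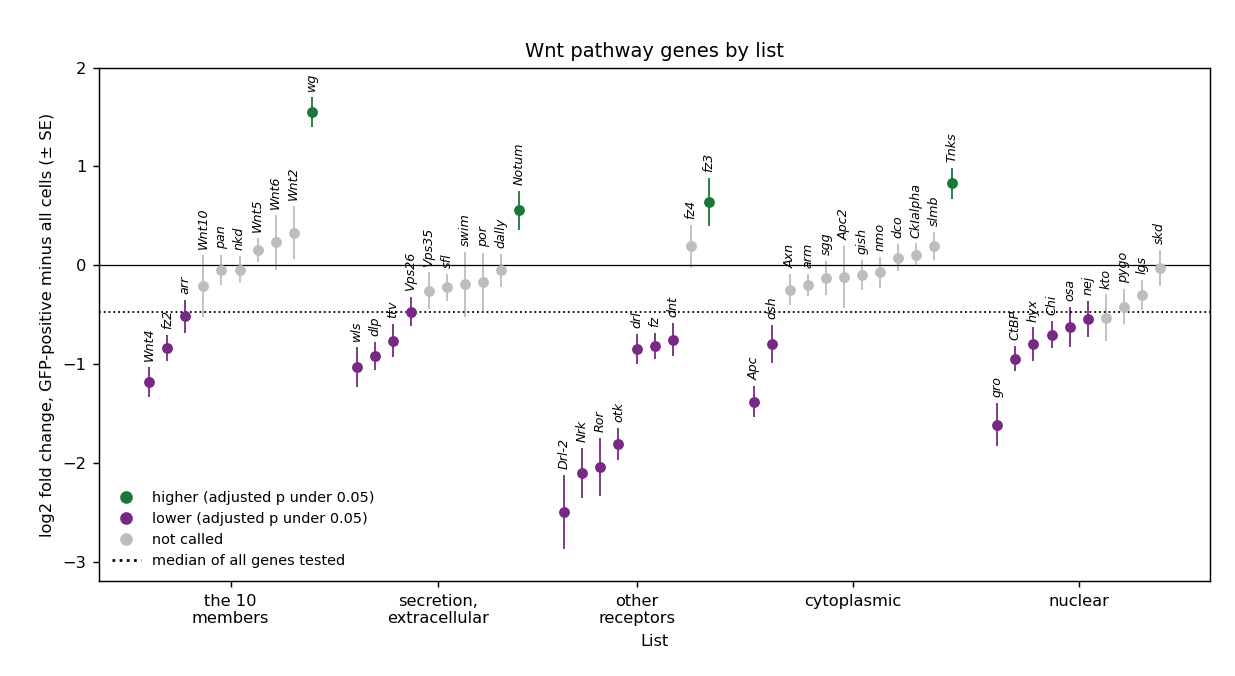
log2 fold change, GFP-positive minus all cells, with its SE for the 10 members and for the 41 tested genes of 4 Wnt pathway lists, coloured by call (green higher, purple lower, grey not called). The dotted line is the median of all genes tested, -0.47; wg, Notum, fz3 and Tnks are the genes called higher.

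The authors' deposited table compares the libraries within each sort. There wg was called higher in sort 4, with a log2 fold change of 1.83 (q = 0.0169), and in sorts 1 to 3 it was not called at 1.52, 1.63 and 1.39 (q = 0.0702, 0.136 and 0.133). In the authors' deposited table the other 9 members were called in 0 of 4 sorts. Among all genes there, 6.87% were called higher and 18.0% lower in at least 1 sort, and 1.74% were called higher and 2.67% lower in all 4, a set that holds 0 members.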

How the data were processed

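Per the labels' protocols, RNA from sorted cells was purified, ERCC spike-ins of Mix 2 were added, and 5 ng of total RNA was amplified before library construction. Build dm3 and 3 tools, Cuffdiff 1.3.0, Cufflinks 1.3.0 and TopHat 1.4.0, are named per the submitters' processing notes; the sources used here give no parameters, annotation release or strand. The authors deposited FPKM per gene and per isoform, 1 column per library, and Cuffdiff log2 fold changes, q-values (a kind of p-value) and calls per sort; the tables carry RPKM in their names and FPKM in their column headers. The number of per-sample columns left unused was 0. Coordinates are on dm3, converted from 0-based starts; an Ensembl annotation and a RefSeq table of Release 6 served for strand, transcript lengths and names only (3 list genes, swim, Tnks and nSyb, were matched through the RefSeq table).

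Fly genes and isoforms at 1 FPKM or more in at least 4 libraries were tested with limma 3.58.1 in R 4.3.3 (trend, pseudocount 1, two-sided, no block). Fold changes on log2(FPKM + 1) understate those of low genes. Single ratios, isoform shares and ovo were compared by exact permutation tests, whose smallest p is 0.0286. These tests treated the libraries as unpaired and did not use the sort. Depth was estimated from steps of FPKM times length in loci with 1 isoform of 0.3 to 2.5 kb. Replicate numbers name the sort in the labels and so pair the 2 libraries of each; deviations from the group means correlated by 0.512, 0.0916, 0.42 and 0.132 within sorts 1 to 4. All 10 members are named, isoforms from a mean of 5 FPKM in 1 group, and up to 3 called genes per pathway list; exceptions are marked. Sorts are the labels' replicates; the p-values measure the spread between them. The members and lists were chosen with earlier results of these data known.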

Additional observations from a re-analysis of the deposited data

Results flagged for a closer look

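Among 20 groups of 4 values for the 10 genes and 18 for the isoforms of fz2, pan and wg, 1 held a library far from the others; chance gives about 1 in 20. GFP-positive library 3 stood at 36.9 FPKM for Wnt4, while the other 3 GFP-positive libraries lay between 24.8 and 26.3 FPKM. It was still below the 62.7 FPKM of the lowest all-cell library. Over the fits that left out 1 library each, the log2 fold change of Wnt4 ranged from -1.31 to -1.13.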

How the results depend on the processing

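As deposited, 1 member, 1265 of all genes and 3 pathway genes were called higher, and 3, 4233 and 19 lower. Calls followed the scaling: the higher ones made up 23% of all calls without scaling, 52.8% with TMM-like, 45% with quantile, 43.9% with upper quartile and 5.13% with ERCC sum scaling. Higher and lower calls were 4 and 1 members, 2299 and 2058 genes and 7 and 6 pathway genes with TMM-like scaling; 3 members were higher, with 2063 and 2517 genes, after quantile normalization; 3 members were higher, with 2010 and 2569 genes and 7 and 10 pathway genes, after upper quartile scaling; and 0 members, 309 genes and 0 pathway genes were higher with the ERCC sum. Signs turned for uncalled values. With the ERCC sum Wnt2 stood at -0.44, Wnt5 at -0.78 and Wnt6 at -0.56. With TMM-like, quantile and upper quartile scaling nkd stood at 0.51, 0.047 and 0.37 and pan at 0.50, 0.00025 and 0.36, and with the first pair Wnt10 stood at 0.074 and 0.28; arr, called as deposited, stood at 0.0020 with TMM-like scaling. Without both libraries of sort 4, an alternative chosen after seeing the data, Wnt10 stood at 0.038 and 1 pathway gene was higher.

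Leaving out 1 library at a time gave 1 to 1 members higher and 2 to 3 lower, 1050 to 1259 genes higher and 3400 to 4411 lower, 1 to 3 pathway genes higher and 17 to 19 lower, and 1 to 2 member isoforms higher and 3 to 4 lower, against 2 and 5 in all libraries; nkd ranged from -0.12 to 0.018 and pan from -0.12 to 0.030. Pathway genes called higher dropped to 1 without GFP-positive library 1 or 4 or all-cell library 2 or 4, and member isoforms called lower to 3 without any 1 library but GFP-positive library 3. Member isoforms called higher were 1 with a pseudocount of 0.1 and 0 with the ERCC sum, and those called lower were 2 with TMM-like and 2 with upper quartile scaling; the ERCC sum and upper quartile for isoforms were chosen after seeing the data. With the sort as a replicate block the calls of the 10 members did not change (1 higher, 3 lower), and arr-RA lost its isoform call (limma adjusted p = 0.0525). The cause of these shifts was not tested. ERCC subgroup B scaling was not run. Depth limits Wnt10 above all.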

Other observations

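The genes whose log2 levels followed a member most closely over the 8 libraries were listed as a description, among 7214 other genes with a mean of at least 5 FPKM; the difference between the groups weighs most in these values. For wg they were grh, an epidermal transcription factor (Pearson's r = 0.994, at 162 FPKM in GFP-positive cells and 58.3 FPKM in all cells), CG9514 (0.992) and bowl (0.990), a zinc finger gene of the odd-skipped family. For Wnt4 they were Rsf1 (0.998), gb (0.998) and l(2)NC136 (0.996), and for fz2 SKIP (0.989), RabX4 (0.987) and Chro (0.987). arr was most like Eb1 (0.987), CG8229 (0.986) and CG12942 (0.985). For the members that differed little between the groups, nkd was most like Su(dx) (0.890), Mhcl (0.858) and lea (0.837), and pan most like Dok (0.971), sgg (0.964), a kinase of the Wnt pathway, and Trf2 (0.956).

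wntD, a Wnt relative outside the 10 genes, did not pass the filter on low values. It stood at 0.108 to 0.385 FPKM in GFP-positive libraries and was listed at 0 in 2 all-cell libraries, with 0.157 and 1.76 FPKM in the other two.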
